A study of Homo sapiens with 3 samples.

Results

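The genes described here encode the cytosolic factors that start and extend protein chains, together with a pair of cytoplasmic poly(A)-binding proteins. They were chosen by name, from a list of 44 EIF, EEF and PABPC genes, and were found by Entrez identifier among the 25702 genes listed in the counts. All 44 were among the 12879 genes that reached 10 counts in some library, which are the genes compared below. They fall into 8 genes of eIF2, its exchange factor eIF2B and the separate factor eIF2A, 13 of eIF3, 9 of eIF4, 5 of start site selection and subunit joining, 7 of elongation and 2 of poly(A) binding. The gene of the alpha subunit of eIF2, EIF2S1, is not on that list and is given with the regulators.

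The RNA came from Molm13, a human acute myeloid leukemia cell line with an internal tandem duplication in FLT3, grown without synchronization in medium with serum. Cells were exposed for 6 h to the vehicle DMSO, to 50 nM pyrvinium or to 100 nM pyrvinium, an anthelmintic cyanine dye that the study tested against leukemia cells. All 3 groups are the same line without any further genetic change, and each group is 1 library. None of the differences below therefore has a replicate check, and the 95% intervals given with them cover counting error only.

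In the textbook account, eIF2 brings the initiator tRNA to the small ribosomal subunit, which eIF3, eIF1 and eIF1A hold open, while eIF4E, eIF4G and eIF4A bind the cap and load the mRNA. The subunits join with eIF5 and eIF5B, after which eEF1A delivers each aminoacyl-tRNA and eEF2 moves the ribosome along. Phosphorylation of eIF2 blocks its recharging by eIF2B, the central step of the integrated stress response, and many mRNAs of elongation factors begin with a 5' terminal oligopyrimidine (TOP) tract through which mTOR and LARP1 control their translation. The study measured eIF2 phosphorylation and mTOR signaling at the protein level, and the question taken to these counts is how far the mRNAs of the factors themselves moved.

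Total counts per library were 23165771 (DMSO), 22677038 (50 nM) and 24075123 (100 nM). Of the 10 myeloid leukemia markers examined, 8 lay between 35.5 and 421 TPM in every library, where TPM is the count per base of exon set to the same total in each library. CSF1R and MPO lay between 2.50 and 11.5 TPM, and of the 10 markers of other cells only PECAM1 passed 3 TPM, at 9.74 to 11.7. FLT3 itself was at 138, 202 and 239 TPM in DMSO, 50 nM and 100 nM. Transcripts of the mitochondrial genome took 5.59%, 4.68% and 5.11% of the counts in the same order, and scaling without them is among the alternatives tried. That total mixes unlike changes. At 100 nM against DMSO the ribosomal RNA genes RNR1 and RNR2 had log2 ratios of 2.04 and 1.07, and ND6 0.46. The remaining mitochondrial genes ran from -1.18 for ND5 to -0.05 for ND1. In a bulk sample, a lower share of cells expressing a gene and less of its RNA per cell cannot be told apart.

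The 44 genes are abundant. Their share of all counts was 3.62% in DMSO, 4.01% at 50 nM and 4.10% at 100 nM, and the lowest single count was 907. In the DMSO library, levels ran from 14.9 TPM for EEF2K, the kinase that inhibits eEF2, to 4545 TPM for EEF1A1. EEF1A1, EEF2 and PABPC1 together held 50.7% of the members' counts in DMSO, 53% at 50 nM and 54.2% at 100 nM. Within eIF3, whose subunits sit in 1 complex, mRNA levels in DMSO spread from 178 TPM for EIF3J to 2649 TPM for EIF3E. Among the cap-binding genes the helicase gene EIF4A1 stood at 1344 TPM and the cap-binding protein gene EIF4E at 33.3 TPM.

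**Figure D1:**
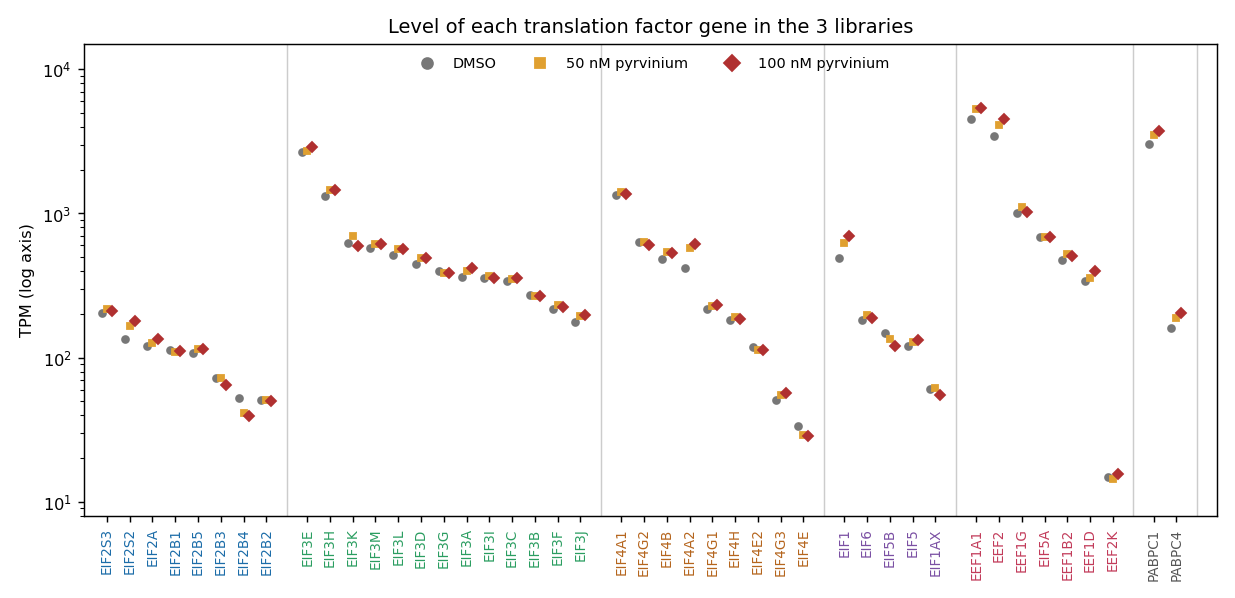
Level of each gene in TPM (log axis) in the DMSO, 50 nM and 100 nM libraries, grouped by role and ordered within each group by the DMSO level. Each point is 1 library; the 3 points of most genes lie close together, and levels run from 14.4 TPM for EEF2K at 50 nM to 5394 TPM for EEF1A1 at 100 nM.

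Pyrvinium moved these mRNAs little. Between the 100 nM and DMSO libraries, the log2 ratio of scaled counts ran from -0.43 for EIF2B4 to 0.52 for EIF4A2, with a median of 0.04 over the 44 genes against -0.002 over all genes tested. No member reached 2-fold, a change that 3.84% of all genes tested showed at 100 nM and 2.73% at 50 nM. With only 44 genes, 0 is near those shares. At the smaller threshold of 1.2-fold, used below for the words rose and fell, 6 members rose and 2 fell at 100 nM. That is 13.6% and 4.55% of the members, where 20.5% of all genes tested rose and 16.6% fell. At 50 nM, 3 members rose and 1 fell, or 6.82% and 2.27%, where the shares over all genes were 14.2% and 11.9%. From 50 nM to 100 nM no member reached 1.2-fold, where 11.2% of all genes rose and 7.66% fell.

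Those shares over all genes include many with few counts, whose ratios scatter more. Among the 5223 genes with a mean count at least that of the least abundant member, a comparison chosen after the data were seen, 9.99% rose and 10.8% fell at 100 nM, and 4.56% rose and 3.79% fell at 50 nM. From 50 nM to 100 nM only 1.55% of these genes rose and 1.21% fell, so that 0 of 44 members is near their share. Against these genes the members' share of rises was higher and their share of falls lower at both doses, on counts of only 6, 2, 3 and 1 genes. The SD of the log2 ratios at 100 nM was 0.190 over the members and 0.236 over the 5223 genes.

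**Figure D2:**
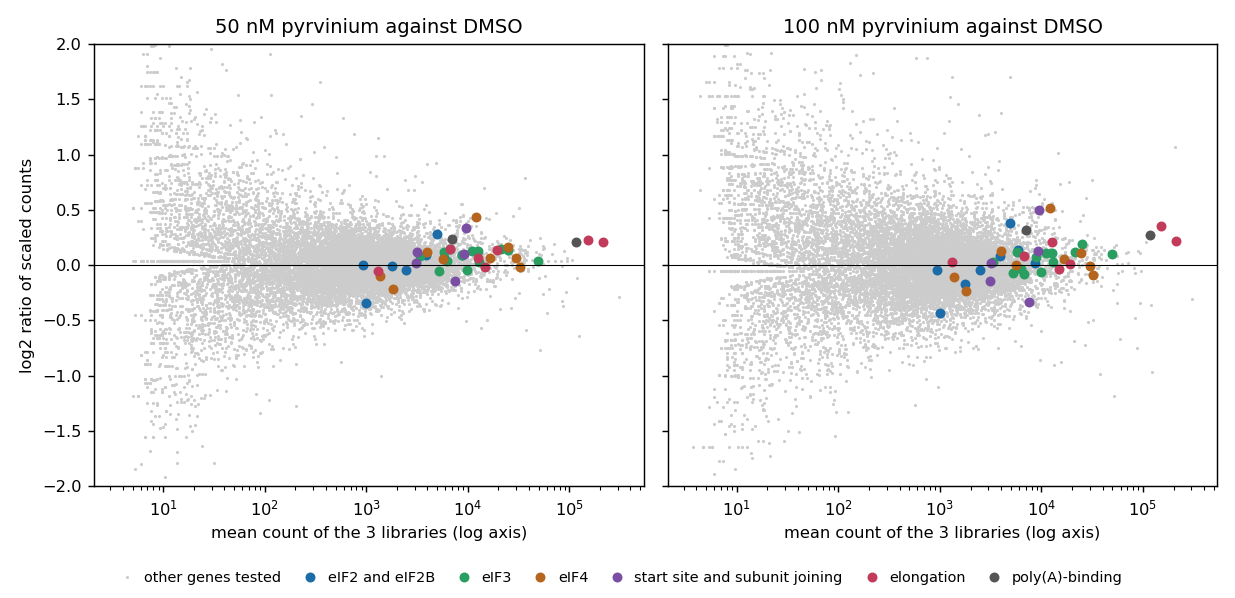
Log2 ratio of scaled counts to the DMSO library against the mean count of the 3 libraries (log axis), at 50 nM and at 100 nM, for the genes tested (grey) and the 44 members (colored by group). The members sit at the abundant end, between -0.43 and 0.52 at 100 nM, and 48 genes at 50 nM and 73 at 100 nM lie outside the vertical range drawn.

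The 2 doses are compared with the same DMSO library, so an error in that library would enter both values of a gene. With that limit, 27 members were above DMSO at both doses, 11 were below at both, and 6 had opposite signs. The shared library makes like signs likely for any gene, and the same count over all genes was not made. Taken dose by dose, 32 of the 44 members were above DMSO at 50 nM and 28 at 100 nM. Of the 12879 genes tested, 6460 and 6392 were. The lower dose lay between the other libraries for 23 of the 44 members and for 56.4% of all genes tested. It did so for all 8 members past 1.2-fold at 100 nM, an order that a large ratio at 100 nM makes likely. Of all 4779 genes past 1.2-fold there, 76.9% showed it, and of the 1084 among them with a mean count at least that of the least abundant member, 96.5% did.

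**Figure D3:**
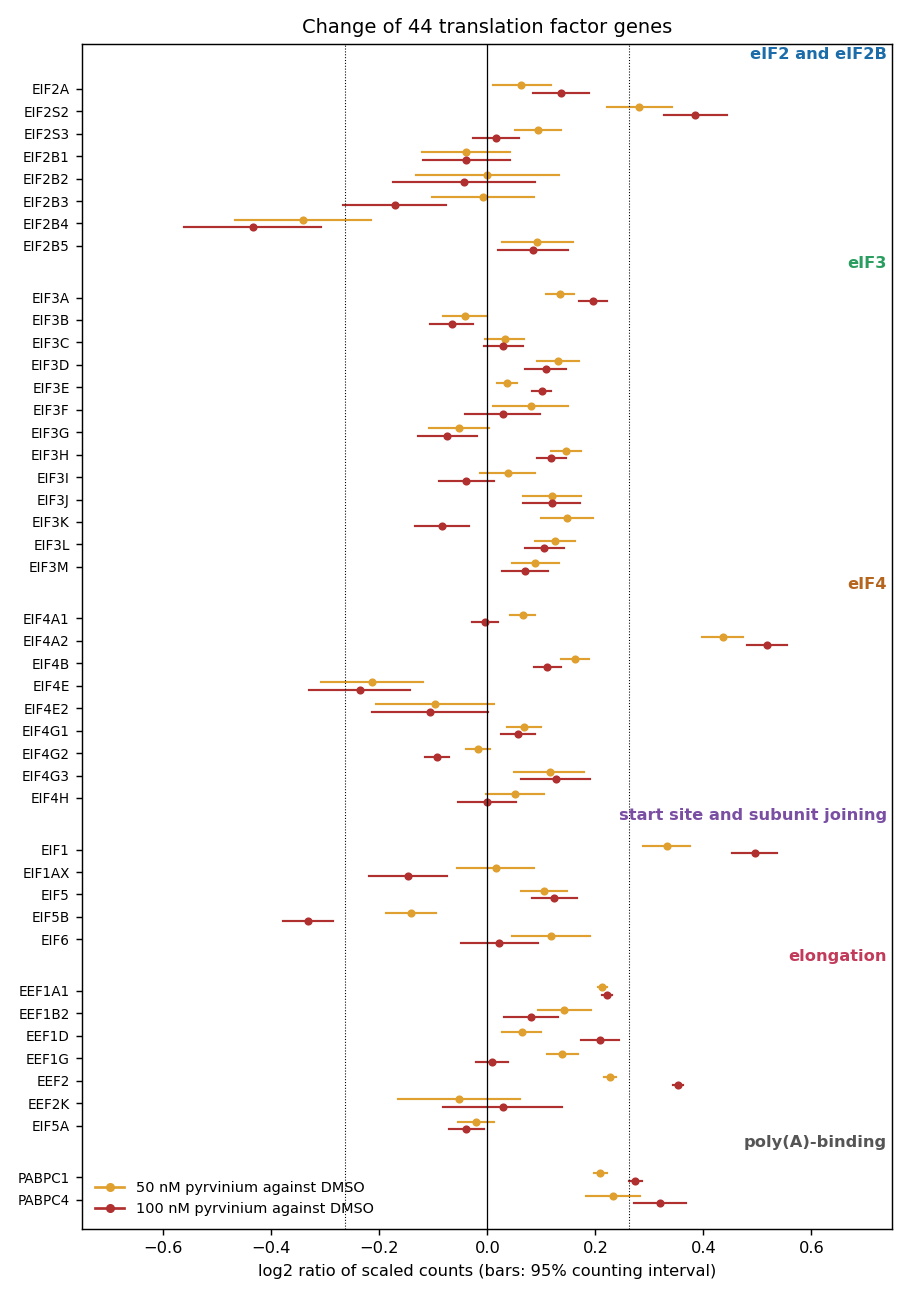
Log2 ratio of scaled counts to the DMSO library for each of the 44 genes at 50 nM (yellow) and 100 nM (red), by group. Bars are 95% counting intervals and dotted lines mark 1.2-fold; at 100 nM EIF4A2, EIF1, EIF2S2, EEF2, PABPC4 and PABPC1 lie to the right of the dotted line, and EIF2B4 and EIF5B to the left.

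The first letters of the mRNAs are shown here because they divide the members in a way that the list of names did not use. RefSeq start sites were at hand for 35 of the 44 members (promoter table, GRCh38.p14). The members without an entry were EIF2S2, EIF3A, EIF3E, EIF3G, EIF3H, EIF3L, EEF1D, PABPC1 and PABPC4. A TOP start was taken as a C at the start site followed by at least 4 further C or T letters, read on the sense strand only. A gene counted if any of its listed starts held such a tract, and EEF1B2 has a start with one and a start without. A TOP start was found in 31.4% of the 35 members with an entry (11 genes). The shares were 7.59% of the 9705 tested genes with an entry and 4.07% of all 35116 listed starts. The 11 were EIF2A, EIF2S3, EIF3D, EIF3F, EIF3K, EIF3M, EIF4A2, EIF4B, EEF1A1, EEF1B2 and EEF2. Each line below gives 15 bases before and 15 from the start, with the pyrimidine tract in capitals.
EIF4A2 (chr3:186783562-186783591, plus strand): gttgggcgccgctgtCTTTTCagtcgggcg
EEF2 (chr19:3985449-3985478, minus strand): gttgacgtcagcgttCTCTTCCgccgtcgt
EEF1A1 (chr6:73521018-73521047, minus strand): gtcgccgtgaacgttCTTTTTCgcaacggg
EIF4B (chr12:53006441-53006470, plus strand): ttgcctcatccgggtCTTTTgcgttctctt
EIF3D (chr22:36529152-36529181, minus strand): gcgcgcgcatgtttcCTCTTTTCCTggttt
EIF3K (chr19:38619173-38619202, plus strand): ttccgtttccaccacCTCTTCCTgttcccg

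The starts of EIF4A1, EIF1, EIF5B and EIF4E hold no such tract. EIF4A1 is set beside its paralog EIF4A2 below. The genes printed, with a tract or without, were picked after their values were seen. No letter is in capitals.
EIF4A1 (chr17:7572810-7572839, plus strand): aggcgggcactccgccctagtttctaagga
EIF1 (chr17:41688870-41688899, plus strand): aggcaccgcccctctgccccagtcactgag
EIF5B (chr2:99337374-99337403, plus strand): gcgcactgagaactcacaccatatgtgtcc
EIF4E (chr4:98929119-98929148, minus strand): ccttctggagcggttgtgcgatcagatcga

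At 50 nM, all 11 members with a TOP start were above DMSO with a counting interval clear of 0, and their log2 ratios ran from 0.06 to 0.44 with a median of 0.14. At 100 nM, 10 of the 11 were above DMSO, 8 of them with an interval above 0, and the median was 0.11. EIF3K was the one below. Among the other 24 members with an entry, 13 were above DMSO at 50 nM (median 0.02) and 10 at 100 nM (median -0.02). Their intervals lay above 0 for 9 genes at 50 nM and 6 at 100 nM. Over all 737 tested genes with a TOP start the medians were 0.04 at 50 nM and 0.03 at 100 nM, and over the 8968 without one they were -0.005 and -0.01. Intervals lay above 0 for 207 of the 737 at 50 nM and 236 at 100 nM. Of all 12879 genes tested, 2399 and 3096 had such an interval. A counting interval narrows as counts grow, and the members are abundant. A tract is a description of these letters, and control through it was not tested.

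**Figure D4:**
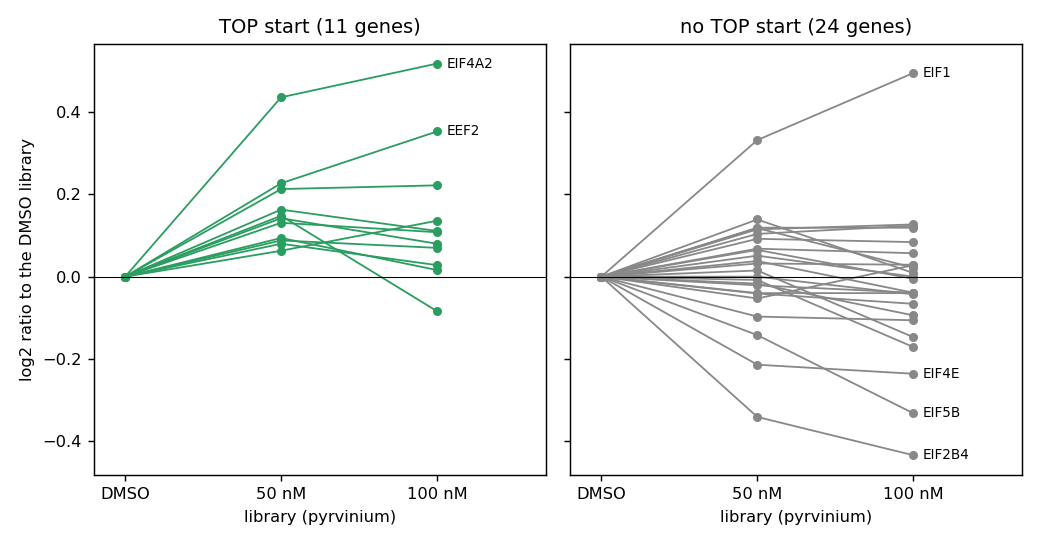
Log2 ratio to the DMSO library at 50 nM and 100 nM pyrvinium for the 11 members with a TOP start (left) and the other 24 members with a RefSeq start entry (right); each line is 1 gene, set to 0 in DMSO. On the left every line is above 0 at 50 nM and EIF3K, at -0.08, is the only one below 0 at 100 nM, while on the right lines run both ways.

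A second list gives 11 members that are usually counted among TOP mRNAs, from general knowledge rather than from the letters above. It shares EIF3F, EIF4B, EEF1A1, EEF1B2 and EEF2 with the genes found by their letters. It adds EIF3A, EIF3E, EIF3H, EEF1D, EEF1G and PABPC1. Of these only EEF1G had a start entry, which held no tract, and the letters of the others could not be read. All 11 genes of this second list were above DMSO at both doses. Intervals lay above 0 for 11 at 50 nM and 9 at 100 nM, and the medians were 0.14 and 0.12. Over all 12879 genes tested, 6460 were above DMSO at 50 nM and 6392 at 100 nM, with intervals above 0 for 2399 and 3096. Of the 11, only EEF2 and PABPC1 reached 1.2-fold, at 100 nM. The 78 cytosolic ribosomal protein genes, whose mRNAs are the best known TOP mRNAs, lay at medians of 0.09 and 0.06 at the lower and higher dose. Of these 78, 64 were above DMSO at 50 nM and 59 at 100 nM, and 1 rose and 1 fell at 100 nM. Those calls are 1.28% in each direction, where 20.5% of all genes tested rose and 16.6% fell.

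Within eIF2, the genes of the beta and gamma subunits differed. EIF2S2, the beta subunit gene (Entrez 8894, hg19 chr20:32676115-32700085), had 4166 counts in DMSO, 4942 at 50 nM and 5660 at 100 nM. It stood highest at 100 nM, and rose by a log2 ratio of 0.28 at 50 nM (interval 0.22 to 0.34) and 0.39 at 100 nM (0.33 to 0.44), or 1.31-fold. EIF2S3, the gamma subunit gene, had 8429, 8784 and 8865 counts, with log2 ratios of 0.09 and 0.02. EIF2S1, the alpha subunit gene, had 4865, 4831 and 4768 counts and a log2 ratio of -0.09 at 100 nM (-0.14 to -0.03). EIF2A, a separate factor that can bring initiator tRNA to the ribosome, was at 0.06 and 0.14.

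Of the 5 genes of eIF2B, the exchange factor that recharges eIF2 with GTP, EIF2B4 alone passed 1.2-fold. EIF2B4, the delta subunit gene (Entrez 8890, hg19 chr2:27587219-27593324), had 1178 counts in DMSO, 908 at 50 nM and 907 at 100 nM. Both treated libraries were low to about the same degree, and the gene fell by 0.34 at 50 nM (interval -0.47 to -0.21) and 0.43 at 100 nM (-0.56 to -0.31), the lowest value of any member. EIF2B3, the gamma subunit gene, had 1848, 1795 and 1707 counts and stood at -0.17 at 100 nM (-0.27 to -0.08). EIF2B1, with 2499, 2373 and 2529 counts, and EIF2B2, with 934, 912 and 943, had 100 nM intervals that held 0. EIF2B5, the catalytic subunit gene, was at 0.08. The eIF2 and eIF2B genes, taken with EIF2A, lay at a median of -0.01 at the higher and 0.03 at the lower dose. At each dose 1 of 8 rose and 1 of 8 fell, or 12.5% in each direction. Over all genes tested 20.5% rose and 16.6% fell at 100 nM, and 14.2% and 11.9% at 50 nM.

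The 13 eIF3 genes, whose products form the scaffold that binds the small subunit, all stayed within 1.2-fold at both doses. Over all genes tested 20.5% rose and 16.6% fell at 100 nM, and 14.2% and 11.9% at 50 nM. Among the 5223 genes with a mean count at least that of the least abundant member, 9.99% rose and 10.8% fell at 100 nM. At 100 nM the eIF3 log2 ratios ran from -0.08 for EIF3K to 0.195 for EIF3A. Of the 13 genes 9 were above DMSO, 7 of them with an interval above 0, and 4 below, 3 of them with an interval below 0. The median of the 13 was 0.07 at 100 nM and 0.09 at 50 nM. Of all 12879 genes tested, 6392 were above DMSO at 100 nM, and intervals lay above 0 for 3096 and below 0 for 3257. EIF3A, the largest subunit, had 22837, 24494 and 27203 counts, the highest at 100 nM. EIF3E, the most abundant of the 13, had 47655, 47701 and 53154 counts and stood at 0.04 and 0.10. EIF3H, EIF3D, EIF3L, EIF3J and EIF3M lay between 0.07 and 0.12 at 100 nM, and EIF3C and EIF3F were each at 0.03. EIF3B, EIF3G and EIF3I lay between -0.07 and -0.04.

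EIF3K, a small subunit at the edge of the complex (Entrez 27335, hg19 chr19:39109722-39127595), was the eIF3 gene whose doses lay on opposite sides of DMSO with both intervals clear of 0. EIF3I also had opposite signs, at 0.04 and -0.04, with intervals that held 0. EIF3K had 6538 counts in DMSO, 7072 at 50 nM and 6418 at 100 nM, so that the 50 nM library was the high one. Its log2 ratio was 0.15 at 50 nM (interval 0.10 to 0.20) and -0.08 at 100 nM (-0.13 to -0.03). EIF3L, its partner in the complex, had 11995, 12778 and 13423 counts, with 0.13 and 0.11. Some of the eIF3 genes share exon bases with a gene on the opposite strand, namely EIF3G with P2RY11, EIF3J with SPG11 and EIF3M with CCDC73, over 10.3%, 4.22% and 15.7% of their exon length. SPG11 went from 1923 to 3068 counts and P2RY11 from 315 to 537 between DMSO and 100 nM, and a share of such reads in the eIF3 values was not tested.

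In the eIF4 group the paralogs of the eIF4A helicase, which unwinds the 5' end of the mRNA, differed. EIF4A2 (Entrez 1974, hg19 chr3:186501361-186507686) had 9478 counts in DMSO, 12519 at 50 nM and 14117 at 100 nM. It rose by 0.44 at 50 nM (interval 0.40 to 0.47) and 0.52 at 100 nM (0.48 to 0.56), or 1.35-fold and 1.43-fold, the highest ratio of the 44 genes at each dose. EIF4A1, the more abundant paralog, had 29556, 30191 and 30651 counts and stood at 0.065 and -0.005, with a 100 nM interval from -0.03 to 0.02. The intervals of the paralogs do not overlap at either dose, and the ratio of EIF4A2 to EIF4A1 in TPM went from 0.313 in DMSO to 0.404 at 50 nM and 0.449 at 100 nM. EIF4A2 shares 6 exon bases with RFC4 on the other strand, 0.317% of its exon length.

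The other eIF4 genes stayed within 1.2-fold. EIF4A2 alone makes 11.1% of the 9 genes at each dose, where 20.5% of all genes tested rose at 100 nM and 14.2% at 50 nM. EIF4E, the cap-binding protein, came closest on the low side, with 2001 counts in DMSO, 1684 at 50 nM and 1767 at 100 nM and log2 ratios of -0.21 (interval -0.31 to -0.12) and -0.24 (-0.33 to -0.14). EIF4E2, a related cap-binding protein known as a repressor, had 1435, 1310 and 1387 counts and intervals that held 0. Of the scaffold genes, EIF4G1 was at 0.06 at 100 nM, EIF4G3 at 0.13 and EIF4G2, which lacks the eIF4E-binding part, at -0.09, each with an interval clear of 0. EIF4B, a helper of the helicase, had 23060, 25215 and 25913 counts and stood at 0.16 and 0.11. EIF4H, the other helper, was at 0.05 at 50 nM and within 0.001 of DMSO at 100 nM. The group's median was 0.065 at 50 nM and within 0.001 of 0 at 100 nM.

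Start site selection and subunit joining held a rise and a smaller fall. Each is 20% of the 5 genes at 100 nM, where 20.5% of all genes tested rose and 16.6% fell. EIF1 (Entrez 10209, hg19 chr17:39845127-39847898), the gatekeeper of start codon choice, had 7737 counts in DMSO, 9509 at 50 nM and 11342 at 100 nM, the highest at the higher dose. It rose by 0.33 at 50 nM (interval 0.29 to 0.38) and 0.495 at 100 nM (0.45 to 0.54), or 1.26-fold and 1.41-fold. EIF5B (Entrez 9669, hg19 chr2:99953834-100016728), the GTPase that joins the subunits, had 8312, 7358 and 6871 counts. It was lowest at 100 nM and fell there by 0.33 (interval -0.38 to -0.28), after -0.14 at 50 nM (-0.19 to -0.10). EIF1AX, the partner of eIF1 in scanning, had 3178, 3135 and 2985 counts and stood at -0.15 at 100 nM. EIF5, which triggers GTP hydrolysis by eIF2, was at 0.12, and EIF6, which keeps the subunits apart until needed, was at 0.02.

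Of the elongation genes EEF2 rose at 100 nM and EEF1A1 stayed just short of the threshold. That single rise is 14.3% of the 7 genes, where 20.5% of all genes tested rose. EEF2, the translocase (Entrez 1938, hg19 chr19:3976054-3985461), had 130720 counts in DMSO, 149408 at 50 nM and 173681 at 100 nM. Each dose stood above the one before it, with log2 ratios of 0.23 at 50 nM (interval 0.22 to 0.24) and 0.35 at 100 nM (0.34 to 0.36), or 1.28-fold at 100 nM. EEF1A1, the carrier of aminoacyl-tRNA (Entrez 1915, hg19 chr6:74225473-74230755), had 190417, 215554 and 231039 counts and stood at 0.21 (0.20 to 0.22) and 0.22 (0.21 to 0.23). An unnamed gene on the other strand shares 12% of its exon length and had at most 220 counts.

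The exchange factor of eEF1A showed no common shift at 100 nM. EEF1D had 11821, 12063 and 14206 counts, with 0.06 at 50 nM and 0.21 at 100 nM. EEF1G had 18424, 19814 and 19280 counts, with 0.14 and 0.01, and EEF1B2 6282, 6771 and 6909, with 0.14 and 0.08. EEF2K was at -0.05 and 0.03, with intervals that held 0, and EIF5A, which relieves stalled ribosomes and carries the amino acid hypusine, at -0.02 and -0.04. The median over the 7 genes was 0.14 at 50 nM and 0.08 at 100 nM. The ratio of their summed counts was 0.20 and 0.25, since EEF1A1 and EEF2 hold most of the counts.

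Both poly(A)-binding genes rose at 100 nM, a group of only 2 genes, and 0 rose at 50 nM. Over all genes tested 20.5% rose at 100 nM and 14.2% at 50 nM. Over the 5223 genes with a mean count at least that of the least abundant member, 9.99% and 4.56% rose. PABPC1, the main cytoplasmic protein that coats poly(A) tails and binds eIF4G (Entrez 26986), had 103672 counts in DMSO, 116984 at 50 nM and 130386 at 100 nM, with log2 ratios of 0.21 (interval 0.20 to 0.22) and 0.27 (0.26 to 0.29). PABPC4, its inducible relative (Entrez 8761, hg19 chr1:40026485-40042521), had 6106, 7002 and 7927 counts, with 0.23 (0.18 to 0.28) and 0.32 (0.27 to 0.37). In both genes the 3 libraries came in the order of dose. Because PABPC1 lies so near the threshold, its interval reaches just below 1.2-fold, which is 0.263 on the log2 scale.

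Without EEF1A1, EEF2 and PABPC1, the summed counts of the other 41 members had a log2 ratio of 0.085 at 50 nM and 0.07 at 100 nM, against 0.15 and 0.18 for all 44. Some members have near-identical copies among which reads can be split. EIF3C and its copy EIF3CL, with 12585 and 7472 counts in DMSO, gave 0.04 at 100 nM when summed. EIF5A with EIF5AL1 gave -0.05, and PABPC1 with PABPC3 gave 0.27.

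The regulators around these factors, 5 further lists written from general knowledge, were also mostly within 1.2-fold. Of 9 genes of eIF2 control, 2 rose at 100 nM and 0 fell, a share of rises of 22.2% where 20.5% of all genes tested rose. At 50 nM 1 rose, IMPACT, and 1 fell, EIF2AK2, each 11.1% where 14.2% of all genes rose and 11.9% fell. IMPACT, an inhibitor of the eIF2 kinase GCN2 (Entrez 55364), had 1425, 1802 and 2135 counts and rose by 0.53 (interval 0.43 to 0.62). PPP1R15A, also known as GADD34, which directs a phosphatase to eIF2 (Entrez 23645), had 838, 938 and 1134 counts and rose by 0.38 (0.25 to 0.51). The 4 eIF2 kinase genes stayed within 1.2-fold at 100 nM. EIF2AK4, the gene of GCN2, had 1253, 1191 and 1156 counts and stood at -0.17 (-0.29 to -0.06), and EIF2AK1, the gene of HRI, 4290, 4145 and 4194 and stood at -0.09 (-0.15 to -0.03). EIF2AK3, the gene of PERK, with 380, 408 and 447 counts, and EIF2AK2, the gene of PKR, with 239, 192 and 235, had intervals at 100 nM that held 0. At 50 nM EIF2AK2 fell by 0.28, with an interval from -0.56 to -0.001.

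Of 11 genes of eIF4 and poly(A) control, EIF4EBP3 rose, on 114, 115 and 171 counts, by 0.53 with a wide interval of 0.18 to 0.88. It makes 9.09% of that list at 100 nM, where 20.5% of all genes tested rose. EIF4EBP1, the main inhibitor of eIF4E under mTOR, had 5980, 6118 and 7025 counts and stood at 0.07 and 0.175. LARP1 (0.18 at 50 nM and 0.23 at 100 nM) and PAIP2, an inhibitor of poly(A)-binding protein (-0.14 and -0.25), were picked out with their values in view and came close to the threshold on opposite sides. Of 9 termination and recycling genes tested of 10 listed, none passed 1.2-fold at 100 nM, where 20.5% of all genes tested rose and 16.6% fell. ABCF1, named with its value in view and with 448, 527 and 490 counts, rose by 0.27 at 50 nM (0.08 to 0.45). As a share this is 11.1% of the 9, where 14.2% of all genes tested rose at 50 nM. Of 8 genes that make hypusine and diphthamide, the modified amino acids of eIF5A and eEF2, DOHH fell by 0.38 (-0.51 to -0.25) on 1082, 890 and 867 counts. This single fall is 12.5% of the 8 at 100 nM, where 16.6% of all genes tested fell.

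Of 14 paralogs and other factors, EIF4E3 rose by 0.30 on 631, 707 and 810 counts, and EIF1AD and EIF5A2 fell. EIF1AD had 814, 662 and 658 counts and a log2 ratio of -0.36 (-0.51 to -0.21). EIF5A2 had 201, 140 and 168 counts and a ratio of -0.315, with an interval from -0.62 to -0.01. EIF1AD and EIF5A2 also fell at 50 nM, and the median of these 14 genes was -0.09 at both doses. Of the 14, 7.14% rose and 14.3% fell at 100 nM, where 20.5% and 16.6% of all genes tested did. At 50 nM 14.3% fell, where 11.9% of all genes tested did. The 20 cytosolic aminoacyl-tRNA synthetase genes, which feed the elongation factors, moved further than the factors did. Of them 11 rose and 0 fell at 100 nM, or 55% against 13.6% of the members, and 8, or 40%, rose at 50 nM, with medians of 0.33 and 0.23. At 100 nM 15 of the 20 were above DMSO and 5 below, 3 of these with an interval below 0. The lowest stood at -0.263, at the very edge of the threshold. Over all genes tested 20.5% rose at 100 nM and 14.2% at 50 nM, and over the 5223 genes at or above the lowest mean count of the members 9.99% and 4.56%. The difference between the lists has no test here.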

How the data were processed

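The authors made strand-specific mRNA libraries, sequenced them as paired reads and aligned them to hg19 with Rsubread. What was deposited is a raw count of reads for each Entrez gene in each library. The aligner version and the use of strand in counting are not given in the sources used here. A deposited table of the authors' EBSeq comparisons (posterior probabilities, fold changes and means per condition) was not used. Each condition is 1 library, labelled by dose, and the higher dose is written once with another unit in the labels.

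Current symbols were matched to 23696 of 25702 identifiers. Library sizes were scaled by TMM (edgeR 4.0.16, R 4.3.3). A gene was kept if any library had 10 or more counts of it. Log2 ratios were computed with 0.5 counts added per library and carry 95% Clopper-Pearson intervals of the count ratio (scipy 1.17.1). A change was called at 1.2-fold, with the study's 2-fold beside it. TPM was computed from the counts and the exon lengths in the files, and is used only for levels. The total counts of 22677038 to 24075123 make the intervals of the members at 100 nM between 0.018 and 0.264 wide. No p-value is given, since 1 library per condition leaves no spread between replicates.

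Coordinates are those of the count tables, in hg19, except the start windows, which come from RefSeq on GRCh38.p14. All 44 members are named, along with EIF2S1, the eIF2 kinases, EIF4EBP1 and those regulators past 1.2-fold at 100 nM whose larger count was 50 or more. The members, lists and thresholds were chosen with earlier results of these data known. The procedure was run on simulated counts with counting error only, which cannot show how it does with spread between replicates. Alternatives included scaling by DESeq2 1.42.0, by total counts and by TMM with the mitochondrial genome left out, other filters, folds and added counts, and summed counts. The exact test of edgeR was run with an assumed coefficient of variation between biological replicates (BCV).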

Additional observations from a re-analysis of the deposited data

Results flagged for a closer look

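EIF3K stood out because its doses lay on opposite sides of DMSO, each with a counting interval clear of 0. Its log2 ratio was 0.148 at 50 nM and -0.084 at 100 nM. The direct ratio of the 100 nM to the 50 nM library was -0.23 (interval -0.28 to -0.18). With 1 library per dose the difference was not tested against a spread between replicates, and no other member met the same condition.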

How the results depend on the processing

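Scaling, filtering and the counts added changed little. The alternatives were DESeq2 size factors, total counts, TMM without mitochondrial genes, 5 counts added, no filter and a filter of 50 counts in every library. Under them all 36 counts of members past 1.2-fold stayed within 1.5 times. The 90 medians were held against a tolerance, the median distance from the middle to an end of the listed genes' own counting intervals. All 90 stayed within it, with a largest shift of 0.012. No interval of a median itself was computed. The threshold mattered more. At 1.5-fold and at 2-fold, 0 members rose and 0 fell at either dose. When the whole interval had to pass 1.2-fold, 0 members fell at 50 nM. With edgeR's exact test at an assumed BCV of 0.1 or 0.2 and an adjusted p of at most 0.05, 0 members passed in either direction at either dose. Of all 12879 genes, 176 were higher and 68 lower at 100 nM with 0.1, and 12 and 0 with 0.2, so that under 1 of 44 would pass at those shares. Calls of that test without adjustment of p are not given, since the same count over all genes was not made. With summed counts in place of medians, the 100 nM values were 0.180 for all members, 0.076 for eIF2 and eIF2B, 0.050 for eIF4, 0.089 for start site selection and 0.247 for elongation. At 50 nM they were 0.153 for all members and 0.199 for elongation, and from 50 nM to 100 nM 0.026 for all members, where the median was -0.019. Without EEF1A1, whose exons overlap another gene, the elongation median at 50 nM was 0.101. Leaving out a library was not possible with 1 per condition. No paired analysis was possible because each group has 1 library.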

Other observations

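Many translation factor genes carry small nucleolar RNA (snoRNA) genes in their introns, and 10 of the 44 members hold 16 of them in these annotations. The counts of these small genes were low. The 4 snoRNA genes within EIF4A2 had 55, 67 and 74 counts for SNORD2 in DMSO, 50 nM and 100 nM, 67, 85 and 94 for SNORA81, 59, 51 and 67 for SNORA63 and 40, 67 and 66 for SNORA4. SNORD37, within EEF2, had 2, 10 and 12 counts. The 3 within EIF4A1, whose own counts hardly differed between libraries, had 69, 67 and 88 counts for SNORA48, 67, 97 and 102 for SNORD10 and 139, 168 and 180 for SNORA67. Whether these reads come from the snoRNAs or from unspliced host transcripts was not tested. The 10 host members had a median log2 ratio of 0.10 at 100 nM and 0.12 at 50 nM, and the other 34 members 0.03 and 0.07, with ranges at 100 nM that overlap widely, from -0.15 to 0.52 and from -0.43 to 0.495.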
